A study of Mus musculus with 14 samples.

Results

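Interferon-stimulated genes are genes that cells switch on when an interferon binds its receptor, and 38 of them, listed by symbol, were followed here through the transcriptome of bone marrow stromal cells (BMSCs) from leukemic and normal mice. All 38 stood in the deposited table of 27099 genes and all 38 passed the filter on low counts, as did 18152 genes in all. The BMSCs had been sorted for GFP of the Nes-GFP reporter, which is driven by regulatory elements of the nestin gene, into a Nes-GFP high and a Nes-GFP low population. The cells had been gated as CD45-, CD31- and Ter119-. Leukemic mice carried the reporter with the iMLL-AF9 transgenes, whose oncogene is induced by doxycycline, and gave 2 Nes-GFP high and 4 Nes-GFP low libraries once acute myeloid leukemia (AML) was evident. Normal mice, which received sucrose water as vehicle, gave 2 Nes-GFP high and 6 Nes-GFP low libraries. AML and doxycycline went together in every library, so their effects cannot be told apart. Some libraries came from 1 mouse and others from a pool of mice, it is not stated which, and p-values therefore measure the spread between libraries. Neither the age and sex of the mice nor the strain of the normal mice stands in the sample labels.

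Type I interferons bind a receptor made of Ifnar1 and Ifnar2, whose kinases Jak1 and Tyk2 phosphorylate Stat2, among others. Stat2 and Irf9 are parts of the complex ISGF3, which binds the interferon-stimulated response element (ISRE) in promoters, while the GAS element is known mainly from the response to interferon gamma. The induced proteins interfere with viral RNA, proteins and membranes, and in the marrow interferons are also known to wake hematopoietic stem cells from quiescence. Several of the genes, such as Stat2 and Usp18, act back on the pathway itself.

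The promoters of many of these genes hold the ISRE core, which is shown first because ISGF3 binds this element. RefSeq promoters (250 bases before to 50 bases after the start, GRCm38.p6) were found for 29 of the 38 members. The core, searched on both strands as GAAANNGAAA, was present in 18 of these 29 genes (62.1%) and in 1079 of 27025 genes with a promoter (3.99%). The GAS core, TTCNNNGAA, which can overlap the ISRE core, was present in 7 of the 29 (24.1%) and in 2582 of the 27025 genes (9.55%). A match describes the letters only and is no proof of binding. The following stretches run 5′ to 3′ on the strand of the gene, with every ISRE core match in capitals (GAAANNGAAA, or its reverse complement where it lies on the other strand). Isg15 and Bst2 are shown for their overlapping copies, Rsad2 and Stat2 for a single copy each, and the pairs Ifit3 with Ifit3b and Oas1a with Oas1g because their letters are the same or nearly so.
Isg15, chr4:156200855-156200916 (minus strand): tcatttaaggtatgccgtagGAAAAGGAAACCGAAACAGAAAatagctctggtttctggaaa
Bst2, chr8:71537567-71537622 (minus strand): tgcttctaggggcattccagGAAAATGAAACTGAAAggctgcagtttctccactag
Rsad2, chr12:26456543-26456592 (minus strand): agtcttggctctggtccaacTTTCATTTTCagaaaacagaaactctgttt
Stat2, chr10:128270256-128270305 (plus strand): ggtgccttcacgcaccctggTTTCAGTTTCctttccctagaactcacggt
Ifit1, chr19:34640765-34640833 (plus strand): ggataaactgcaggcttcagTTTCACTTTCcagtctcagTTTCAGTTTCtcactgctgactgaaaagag
Ifit3, chr19:34583353-34583436 (plus strand): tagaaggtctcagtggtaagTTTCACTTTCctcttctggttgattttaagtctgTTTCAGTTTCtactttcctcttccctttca
Ifit3b, chr19:34607749-34607832 (plus strand): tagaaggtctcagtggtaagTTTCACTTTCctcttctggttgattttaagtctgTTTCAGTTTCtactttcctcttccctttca
Oas1a, chr5:120907526-120907565 (minus strand): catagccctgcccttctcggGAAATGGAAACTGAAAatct
Oas1g, chr5:120887614-120887651 (minus strand): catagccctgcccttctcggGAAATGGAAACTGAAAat
In Isg15 the first base of the 3 overlapping cores lay 78 bases before the start, in Bst2 130 bases, in Rsad2 120 bases and in Stat2 222 bases before it. Within the window searched, Herc6, Ifit2, Oasl1, Oasl2, Lgals3bp, Cmpk2, Dtx3l, Sp100, Ifi44, Ifi35 and Xaf1 had no match, which says only that these letters are not in this window.

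Several members lie beside each other in the genome (GENCODE, GRCm38). Ifit2, Ifit3, Ifit3b and Ifit1 follow each other on the plus strand of chromosome 19, with Ifit2 from 34550694 to 34576419 and Ifit1 from 34640871 to 34650009. Gbp7, Gbp3 and Gbp2 follow each other on chromosome 3, and Oas2, Oas3, Oas1g and Oas1a on the minus strand of chromosome 5. Rsad2 (chromosome 12, 26442746 to 26456452) and Cmpk2 (26469204 to 26479837) start head to head 12751 bases apart. Parp9 and Dtx3l lie head to head on chromosome 16 and share 458 exonic bases on opposite strands, so that their reads cannot be told apart there, as the strand setting of the counting is not stated. Of the 50-base stretches of Oas1a exons, 57.6% also occur in Oas1g, and of those of Ifit3 51.2% also occur in Ifit3b. The counts of these 4 genes are therefore uncertain between the partners.

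The libraries differed in depth and in the levels of cell type markers. Totals ran from 5615941 to 11436652 counts. Nes itself was at 32.3 and 26.6 CPM (counts scaled to the TMM-adjusted library total) in the AML high libraries and at 2.27 and 36.0 CPM in the normal high libraries, against 0 to 5.69 CPM in the low libraries, so that normal high replicate 1 went against its label. Of the 18152 genes, 32.5% to 40.4% were under 1 CPM in the 4 high libraries and 18.2% to 30.6% in the 10 low libraries. The 8 stroma markers summed to 4555 and 37646 CPM in AML high, 59569.8 and 56115.5 CPM in normal high, 649 to 26858 CPM in AML low and 4711 to 62911 CPM in normal low libraries. Mean levels over the 14 libraries were 14446.5 CPM for Cxcl12 and 8867 CPM for Col1a1, followed by Adipoq at 1413 CPM. The stroma sum, also where used as a covariate, therefore follows mainly Cxcl12 and Col1a1. Although the sort was on CD45-negative cells, Ptprc, which encodes CD45, was at 81.6 to 447 CPM in all 4 AML low libraries, at 475 and 482 CPM in normal low replicates 3 and 4, and at 3.94 to 8.02 CPM in the other 4 normal low libraries. The 8 macrophage markers summed to 982 to 27938 CPM in AML low and to 208 to 25211 CPM in normal low libraries, with C1qa at 0 in 3 and Csf1r above 0 in all 4 of the AML low libraries, and most of the sum was Lyz2, which neutrophils also express (26987 of 27938 CPM in AML low replicate 3). The 8 neutrophil markers summed to 12378 and 2069 CPM in AML high, 29754 and 1129 CPM in normal high, 4765 to 73610.0 CPM in AML low and 550.3 to 81997 CPM in normal low libraries. The 8 erythroid markers summed to 46.1 and 8.98 CPM in AML high against 2771 and 130.1 CPM in normal high libraries, and to 11.9 to 2293 CPM in AML low against 400.02 to 3056 CPM in normal low libraries. The 7 lymphoid markers summed to 5.94 and 9.61 CPM in AML high against 379 and 34.5 CPM in normal high libraries, and to 53.02 to 260.3 CPM in AML low against 47.96 to 2875 CPM in normal low libraries. The part of these markers in the results was not tested beyond the fits with the stroma sum and Ptprc. In bulk RNA, fewer cells of a type and less RNA per cell cannot be told apart.

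Summed over the 38 genes, the level overlapped between AML and normal mice in both populations. The sum was 807, 1339, 1647 and 2244 CPM with a median of 1493 CPM in the 4 AML low libraries, and it ranged over 1231 to 4053 CPM with a median of 1975 CPM in the 6 normal low libraries. In the Nes-GFP high population it was 749 and 3492 CPM in the AML mice and 1745 and 5246 CPM in the normal mice. The sums are set beside the stroma markers here as a description, for chosen libraries only. The highest normal low sums, 4053 and 3431 CPM, belonged to replicates 1 and 2, which also had the highest stroma sums, and the highest AML low sum to replicate 1, which had the highest stroma sum of its group. AML low replicate 3 had the lowest stroma sum of its group, 649 CPM, and 1339 CPM of the members. In AML low replicate 2 these were 2289 and 807 CPM. Normal high replicate 1 had about the stroma sum of replicate 2 but 1745 CPM of the members against 5246 CPM. Most of the stroma sum of normal high replicate 1 was Col1a1, at 51808 CPM against 6413 CPM in normal high replicate 2. Each other stroma marker was lower in replicate 1 of this pair, such as Cxcl12 at 6677 against 42548 CPM. The part of cell content in the sums was not tested beyond the fits given below. Ifitm3 and Lgals3bp carried much of the sum, and without them it was 375 to 970 CPM in AML low and 734 to 1974 CPM in normal low libraries.

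**Figure D1:**
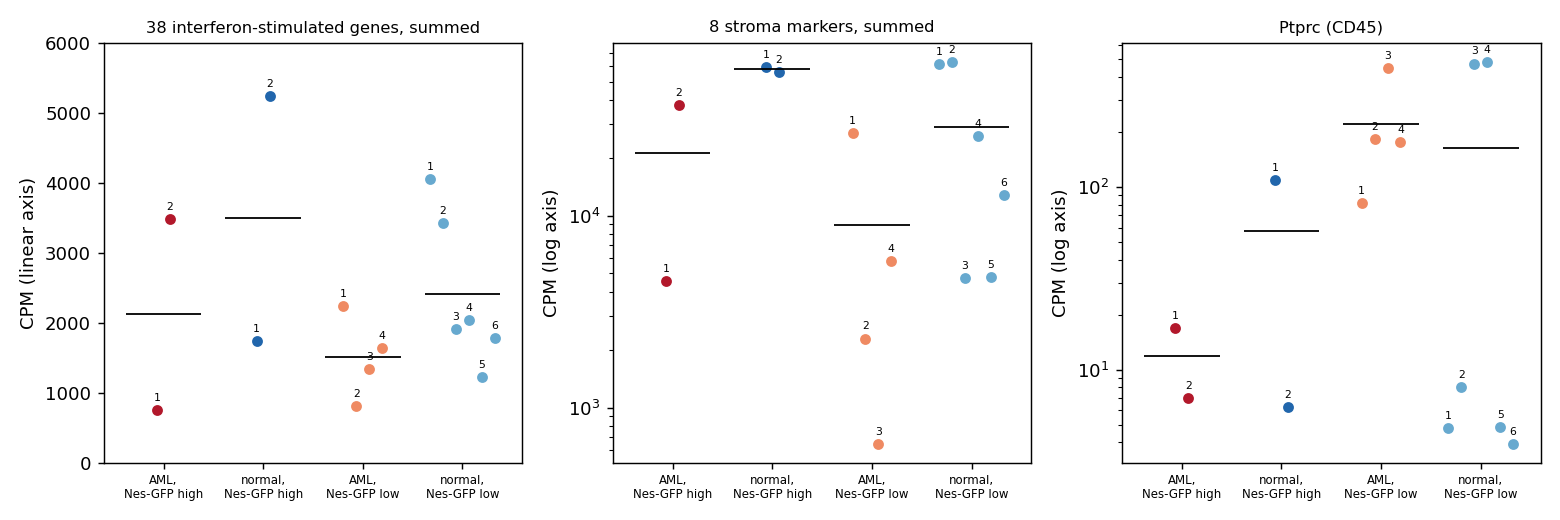
Summed level of the 38 interferon-stimulated genes (left, CPM, linear axis), of 8 stroma markers (middle, CPM, log axis) and level of Ptprc (right, CPM, log axis) in 14 libraries; points are libraries, numbered by replicate, and the black line is the group mean. The AML low libraries lie between 807 and 2244 CPM on the left, and the 2 normal low libraries with the highest stroma sums have the highest sums of the interferon-stimulated genes in their group.

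The genes differed widely in level. Over the 14 libraries, mean levels were 848 CPM for Ifitm3, which restricts the entry of enveloped viruses, 377 CPM for Lgals3bp, a secreted glycoprotein, and 141 CPM for Bst2, which tethers virions to the membrane and in mice also marks plasmacytoid dendritic cells. Sp100, a component of nuclear bodies, averaged 75.8 CPM, the GTPase Gbp2 70.8 CPM and Oasl2, of the oligoadenylate synthetase family, 57.0 CPM. At the other end were Oas2 with 1.19 CPM, Herc6 with 4.22 CPM and Mx2 with 4.48 CPM. Per kilobase of exon, Ifitm3 had 1251 CPM per kb, Bst2 156 CPM per kb, Lgals3bp 133 CPM per kb and Isg15 50.9 CPM per kb, and Oas2 had 0.268 CPM per kb.

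Isg15, Ifitm3, Bst2, Lgals3bp, Stat2, Sp100, Ifi35 and Xaf1 were at 1 CPM or more in all 14 libraries, and the other 30 genes fell short of 1 CPM in at least 1 library. The number of members under 1 CPM was 16 and 8 in AML high, 15 and 10 in normal high, 3 to 13 in AML low and 1 to 4 in normal low libraries. AML low replicate 2, with 13 members under 1 CPM (34.2%), had 21.9% of all tested genes under 1 CPM, and AML low replicate 3, with 3 members (7.89%), had 21.2%. Normal high replicate 2 held the highest of the 14 values for 14 members, normal low replicate 1 for 9 and AML high replicate 2 for 4, whereas AML high replicate 1 and the 4 AML low libraries held the highest value of none.

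**Figure D2:**
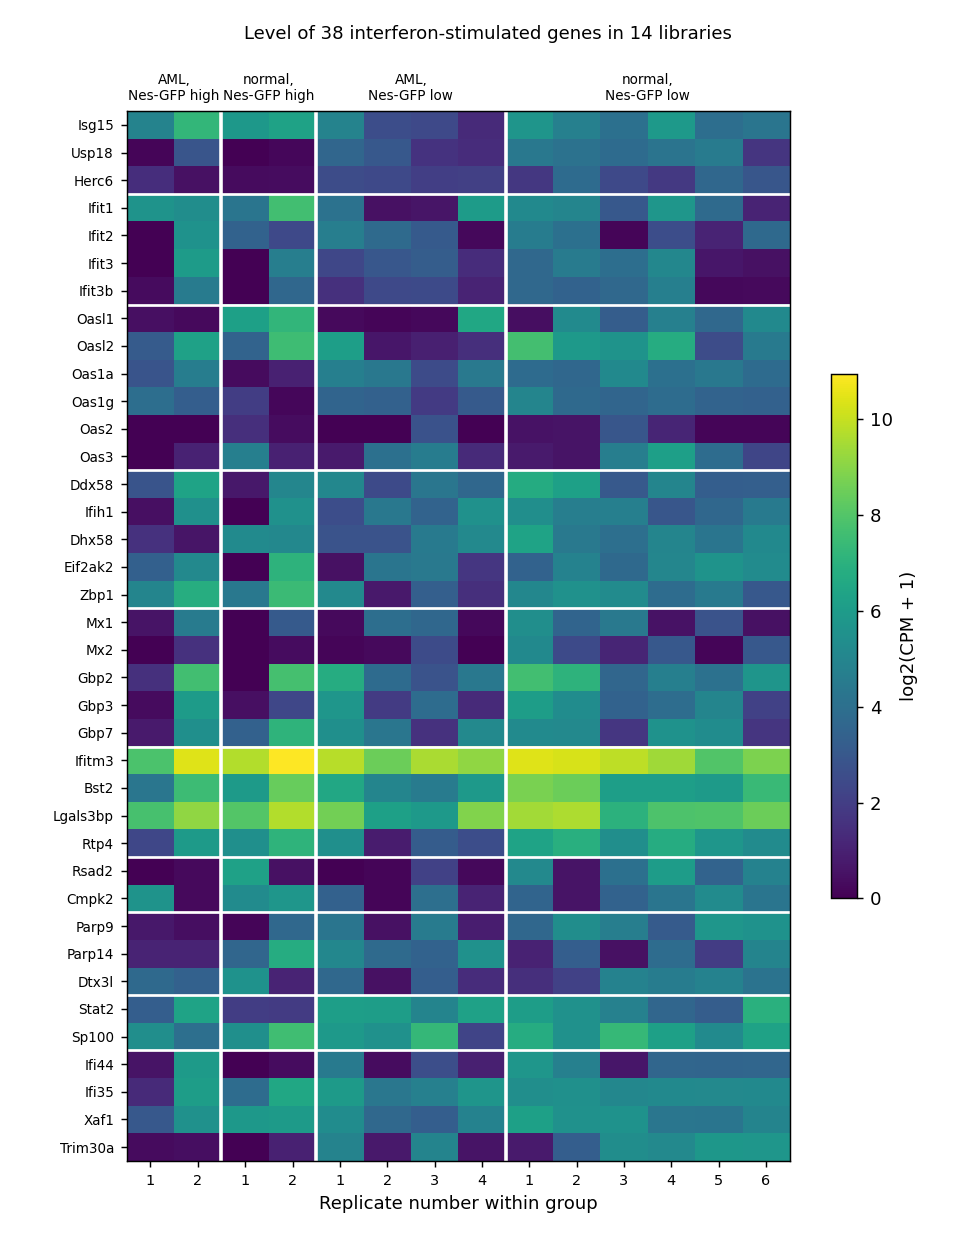
Level of each of the 38 genes (rows, grouped by role with white lines between roles) in each of the 14 libraries (columns, by group and replicate number) as log2(CPM + 1). Ifitm3 and Lgals3bp are bright in every library, Oas2 is dark in nearly all, and AML high replicate 1 and AML low replicate 2 have the most dark cells of their groups, with 16 and 13 members under 1 CPM.

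Members did not move as 1 block across the libraries. Over 14 libraries, the Pearson correlation of log2(CPM + 1) between 2 members had a median of 0.19 over 703 pairs, and 69.1% of pairs were above 0. The highest was 0.978 for Ifit3 and Ifit3b, whose exons share much of their sequence, followed by 0.874 for Gbp3 with Ifi44 and 0.868 for Ddx58 with Gbp2. Outside the list, the genes whose pattern was most like the mean of the standardised members were Gsta4 (r = 0.906), Tgtp2 (r = 0.881), Fndc4 (r = 0.878), Ermp1 (r = 0.864), Tgtp1 (r = 0.861), Slfn8 (r = 0.860), Cxcl9 (r = 0.860), Tmem94 (r = 0.859), Ubtd1 (r = 0.858) and Gvin1 (r = 0.857). These correlations over 14 libraries share library depth and stromal content and are given as a description.

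The comparison of AML with normal mice in Nes-GFP low BMSCs was the best replicated of the 4 comparisons made between 2 groups. Of the 38 genes, 33 had a log2 fold change below 0 and 5 above 0, with a median of -0.98, against 49.8% of all 18152 genes below 0 and a median of 0.00. No member was called by edgeR's quasi-likelihood test at a Benjamini-Hochberg adjusted p under 0.05, and 0% of all genes were. At an unadjusted p under 0.05, 3 members were lower (Rsad2, Rtp4 and Bst2) and 0 higher, against 2.9% of all genes lower and 2.64% higher. limma voom and DESeq2 each called 0 members, DESeq2 17326 genes tested, with 0.473% of them called lower and 0.208% higher. The groups overlapped for every member, whereas 0.667% of all genes were lower and 0.441% higher with no overlap. The count of 33 stood at 29 to 33 when any 1 library was left out, and the median at -1.23 to -0.60. With the stroma sum as a covariate, chosen after seeing the data, 23 of 38 were below 0 with a median of -0.71, with Ptprc as a covariate 28 with a median of -0.68, without AML low replicates 2 and 3, which had the lowest stroma and highest macrophage sums, 28 with a median of -0.78, and against only the 2 normal low libraries rich in Ptprc 27 with a median of -0.60.

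Rsad2 encodes viperin, which makes a chain-terminating ribonucleotide from CTP. It was at 0, 0.0998, 0.163 and 3.32 CPM in the AML low libraries, against a lowest value of 0.472, a median of 21.5 and a highest of 65.2 CPM in the normal low libraries. Of the 6 normal low libraries, 5 were above every AML low library and replicate 2 was within their range. The log2 fold change was -4.79 (standard error 1.82, edgeR adjusted p = 0.758, DESeq2 adjusted p = 0.0753). Its neighbor Cmpk2, a nucleotide kinase that supplies CTP, was at 0.0998 to 14.9 CPM in AML low and at 0.472 to 37.6 CPM in normal low libraries, with a log2 fold change of -1.30 (standard error 1.36). Rsad2 was 3.32 CPM in AML low replicate 3, the AML low library with the highest Ptprc and the lowest stroma sum. With the stroma sum as a covariate its log2 fold change was -6.95 and with Ptprc as a covariate -6.28.

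Rtp4, a chaperone of receptors that also restricts flaviviruses, was at 0.798, 5.04, 8.12 and 42.7 CPM in AML low libraries, against a lowest value of 38.2, a median of 66.9 and a highest of 120.0 CPM in normal low libraries. AML low replicate 1 alone reached the normal range. The log2 fold change was -2.38 (standard error 1.01, edgeR adjusted p = 0.837), and -4.01 without that library. Bst2 was at 22.4, 30.9, 59.2 and 94.7 CPM in AML low libraries, against a lowest value of 62.5, a median of 119.6 and a highest of 434 CPM in normal low libraries. Its log2 fold change was -1.90 (standard error 0.85, edgeR adjusted p = 0.856), but -0.45 with the stroma sum as a covariate and -0.43 against only normal low replicates 3 and 4. The other 2 members at the membrane or secreted, Ifitm3 and Lgals3bp, had log2 fold changes of -0.37 (standard error 0.56) and -0.71 (standard error 0.70) with wide overlap, Ifitm3 at 357 to 884 CPM in AML low and 255 to 1382 CPM in normal low libraries. The 4 plasmacytoid dendritic cell markers summed to 9.47 to 157 CPM in AML low and 0.962 to 121 CPM in normal low libraries, and the highest sum of either group was mostly Klk1 (155 CPM in AML low replicate 4 and 110.4 CPM in normal low replicate 4). In AML low replicate 1, where Bst2 was highest of its group, Siglech was at 0.206 CPM, the lowest of its group, Pacsin1 at 8.96 CPM, the highest of its group, Klk1 at 0.309 CPM and Ccr9 at 0. Their part in the values of Bst2 was not tested. Sp100 was at 3.74, 45.2, 58.0 and 158 CPM in AML low and 36.9 to 161 CPM in normal low libraries.

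The 3 genes of ISG15 conjugation, by which the ubiquitin-like Isg15 is put on proteins by the ligase Herc6 and taken off by the protease Usp18, were all below 0. Isg15 was at 1.46, 4.34, 4.99 and 28.5 CPM in AML low libraries, against a lowest value of 14.4, a median of 22.3 and a highest of 59.1 CPM in normal low libraries. In 3 of the 4 AML low libraries it was under every normal low library, with a log2 fold change of -1.65 (standard error 0.85, edgeR adjusted p = 0.9999). With the stroma sum as a covariate this was -0.84, and without AML low replicate 1 it was -3.09. Usp18 was at 1.63 to 11.2 CPM in AML low and 2.22 to 22.5 CPM in normal low libraries, and Herc6 at 3.04 to 4.84 CPM in AML low and 2.46 to 13.3 CPM in normal low libraries.

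Among the 5 GTPases (Mx1, Mx2, and Gbp2, Gbp3 and Gbp7, whose proteins attack membranes of pathogens), all 5 were below 0 with log2 fold changes of -2.89 to -0.14. Mx2 was at 0, 0.103, 0.200 and 4.61 CPM in AML low libraries, against a lowest value of 0.0934, a median of 5.79 and a highest of 35.6 CPM in normal low libraries (log2 fold change -2.89, standard error 1.80, edgeR adjusted p = 0.9999). Gbp2 was at 5.91, 13.4, 20.01 and 108 CPM in AML low libraries, against 11.1 to 199 CPM in normal low libraries. All 5 nucleic acid sensors and effectors were below 0 as well, between -1.44 and -0.13: the RNA helicases Ddx58 (RIG-I), Ifih1 (MDA5) and Dhx58 (LGP2), the kinase Eif2ak2 (PKR) and Zbp1, which binds Z-form nucleic acid. None of the 5 had an unadjusted p under 0.05, and the smallest standard error among them was 0.74, for Dhx58.

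The oligoadenylate synthetases make the messenger that activates RNase L, and of the related Oasl proteins mouse Oasl1 lacks that activity. Of the 6 genes, 5 were below 0 and Oasl1 was above 0, with log2 fold changes of -2.04 to 0.20. Oasl2 was at 0.599, 0.923, 1.79 and 69.1 CPM in AML low libraries, against a lowest value of 4.86, a median of 54.3 and a highest of 203 CPM in normal low libraries. In 3 of the 4 AML low libraries Oasl2 was under every normal low library (log2 fold change -2.04, standard error 1.45, edgeR adjusted p = 0.9999, and -6.13 without AML low replicate 1). Oasl1 went by single libraries, at 0.0998, 0.185, 0.206 and 91.2 CPM in AML low and at 0.321 to 36.6 CPM in normal low libraries. Of the 4 IFIT genes, which bind viral RNA at its cap or end, 3 were below 0, with Ifit1 at 0.399, 0.554, 16.7 and 64.1 CPM in AML low and 1.11 to 53.1 CPM in normal low libraries.

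The members above 0 in Nes-GFP low BMSCs were Parp14 (1.42, standard error 1.03), Stat2 (0.36), Ifit2 (0.25), Oasl1 (0.20) and Ifi35 (0.09), of which Oasl1 and Ifi35 were at -5.05 and -0.17 with limma voom. Parp14, a mono-ADP-ribosyltransferase, was at 9.87 to 45.1 CPM with a median of 22.9 CPM in AML low libraries, against a lowest value of 0.405, a median of 5.69 and a highest of 30.1 CPM in normal low libraries. Its relatives in function, Parp9 and the ubiquitin ligase Dtx3l, which form a complex, both had a log2 fold change of -1.56. Stat2, the part of ISGF3 that is itself interferon-stimulated, was at 29.6, 66.9, 69.7 and 75.1 CPM in AML low and 8.50 to 121 CPM in normal low libraries. None of the 5 had an unadjusted p under 0.05.

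In Nes-GFP high BMSCs the members split between libraries as much as between mice. Of the 38 genes, 24 had a log2 fold change below 0 and 14 above 0, with a median of -0.69, against 45.0% of all genes below 0 and a median of 0.08. With 2 libraries a group, this balance rested on replicate 2 of either group: without normal high replicate 2, 12 members were below 0 with a median of 1.51, and without AML high replicate 2, 31 were below 0 with a median of -3.08. Without normal high replicate 1, the library with little Nes, 23 were below 0 with a median of -0.99, and without AML high replicate 1, 19 with a median of -0.01. No member was called by edgeR (0% of all genes called), with a smallest adjusted p of 0.247. At an unadjusted p under 0.05, 5 members were higher and 4 lower, against 7.62% higher and 4.54% lower over all genes. DESeq2 called 3 members as higher and 4 as lower at an adjusted p under 0.05, against 6.24% higher and 4.27% lower among 15167 genes. The groups did not overlap for 5 members that were higher (Herc6, Oas1a, Oas1g, Stat2 and Ifi44) and 7 that were lower in AML (Oasl1, Oas2, Dhx58, Rsad2, Parp14, Sp100 and Xaf1), and for 16% of all genes that were higher and 11.5% that were lower.

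**Figure D3:**
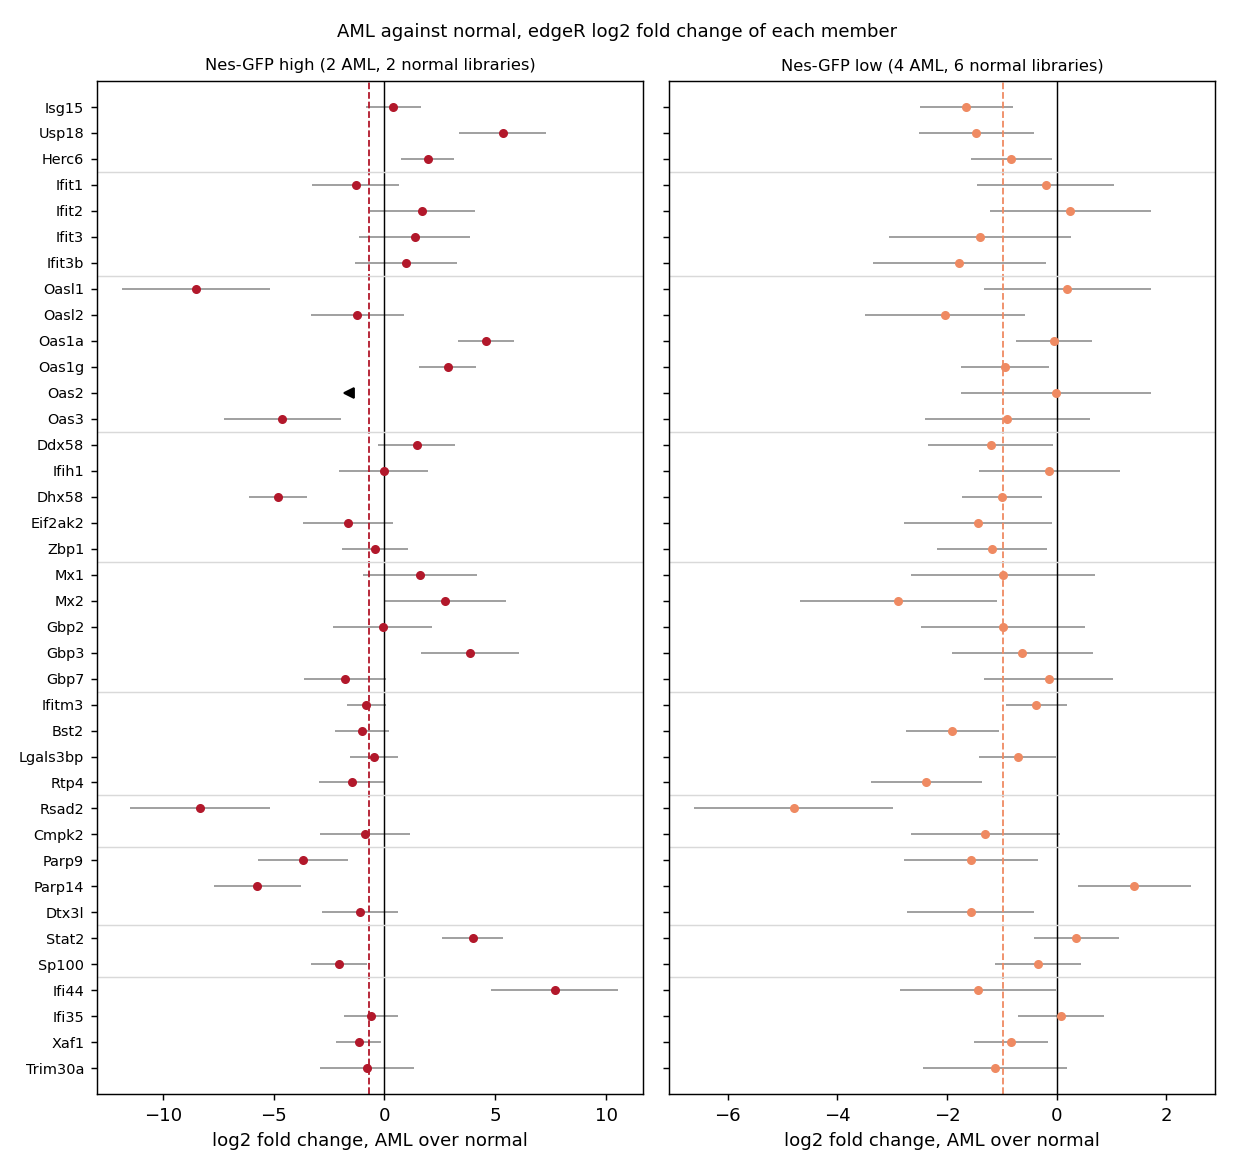
Log2 fold change of AML over normal mice for each of the 38 genes from edgeR, with bars of 1 standard error, in Nes-GFP high (left) and Nes-GFP low BMSCs (right, on a narrower axis). The dashed line is the median of the 38, -0.69 on the left and -0.98 on the right, and the black triangle marks a bound of -1.58 for Oas2, which had no count in either AML high library; 24 points lie below 0 on the left and 33 on the right.

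The 4 members that DESeq2 called lower in AML high BMSCs were near 0 in both AML libraries. Dhx58, a helicase that tunes RIG-I and MDA5 signalling, was at 1.98 and 0.522 CPM in AML high and at 37.3 and 33.4 CPM in normal high libraries. Its log2 fold change was -4.81 (standard error 1.30, edgeR adjusted p = 0.247, DESeq2 adjusted p = 0.000282) and stayed between -6.07 and -4.19 when any 1 high library was left out. Oasl1, which in mice restrains Irf7 translation, was at 0.371 and 0.209 CPM in AML high and 74.6 and 146 CPM in normal high libraries (log2 fold change -8.51, standard error 3.33, edgeR adjusted p = 0.361, DESeq2 adjusted p = 0.00351). Parp14 was at 1.11 and 1.15 CPM in AML high and 11.3 and 110.1 CPM in normal high libraries (log2 fold change -5.73, standard error 1.98, edgeR adjusted p = 0.314, DESeq2 adjusted p = 0.00387, and -3.36 without normal high replicate 2). Rsad2 was at 0 and 0.209 CPM in AML high and 77.1 and 0.425 CPM in normal high libraries, with 613 and 3 reads in the normal ones. Its log2 fold change of -8.32 (standard error 3.14, edgeR adjusted p = 0.345, DESeq2 adjusted p = 0.00779) rested on normal high replicate 1 and was -1.73 without it.

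The 3 members that DESeq2 called higher in AML high BMSCs were Oas1a, Stat2 and Ifi44. Oas1a was at 6.18 and 23.8 CPM in AML high and at 0.252 and 0.991 CPM in normal high libraries, against 4.71 to 35.9 CPM in the 10 low libraries. Its log2 fold change was 4.57 (standard error 1.25, edgeR adjusted p = 0.256, DESeq2 adjusted p = 0.000949), and 4.03 without normal high replicate 1. Its near copy Oas1g was at 14.5 and 8.67 CPM in AML high and 3.02 and 0.142 CPM in normal high libraries (log2 fold change 2.86, standard error 1.29). Stat2 was at 8.78 and 81.5 CPM in AML high and at 3.02 and 2.69 CPM in normal high libraries, with a log2 fold change (AML over normal) of 3.98 (standard error 1.36, edgeR adjusted p = 0.310, DESeq2 adjusted p = 0.0163), but 1.58 without AML high replicate 2. Ifi44, whose protein has a poorly known role in the antiviral response, was at 0.495 and 62.1 CPM in AML high and 0 and 0.283 CPM in normal high libraries. Its log2 fold change of 7.69 (standard error 2.87, edgeR adjusted p = 0.341, DESeq2 adjusted p = 0.00813) was 1.72 without AML high replicate 2. Usp18, at 0.124 and 6.47 CPM in AML high and 0 and 0.142 CPM in normal high libraries, had 1 and 62 reads in the AML pair and 0 and 1 in the normal pair, with a log2 fold change of 5.34 (standard error 1.96, edgeR adjusted p = 0.337) that was 0.71 without AML high replicate 2.

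The remaining members had no unadjusted p under 0.05 in Nes-GFP high BMSCs. All 4 genes of the membrane or secreted group were below 0, between -1.48 and -0.48, with Ifitm3 at 228 and 1369 CPM in AML high and 827 and 1983 CPM in normal high libraries, and Bst2 at 18.4 and 180.3 CPM in AML high and 61.0 and 341 CPM in normal high libraries. Lgals3bp was at 215 and 557 CPM in AML high and 256 and 820.4 CPM in normal high libraries. Isg15 overlapped between the groups, at 28.4 and 150.2 CPM in AML high and 56.8 and 79.6 CPM in normal high libraries (log2 fold change 0.39, standard error 1.24). Of the 4 IFIT genes, 3 were above 0 (Ifit2 at 1.70, but at -1.89 with limma voom), each with 1 AML library high and 1 at or near 0, such as Ifit3 at 0 and 63.0 CPM in AML high and 0 and 24.6 CPM in normal high libraries. Gbp2 was at 1.85 and 196 CPM in AML high and 0 and 210.1 CPM in normal high libraries, so that replicate 1 of both groups nearly lacked it.

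**Figure D4:**
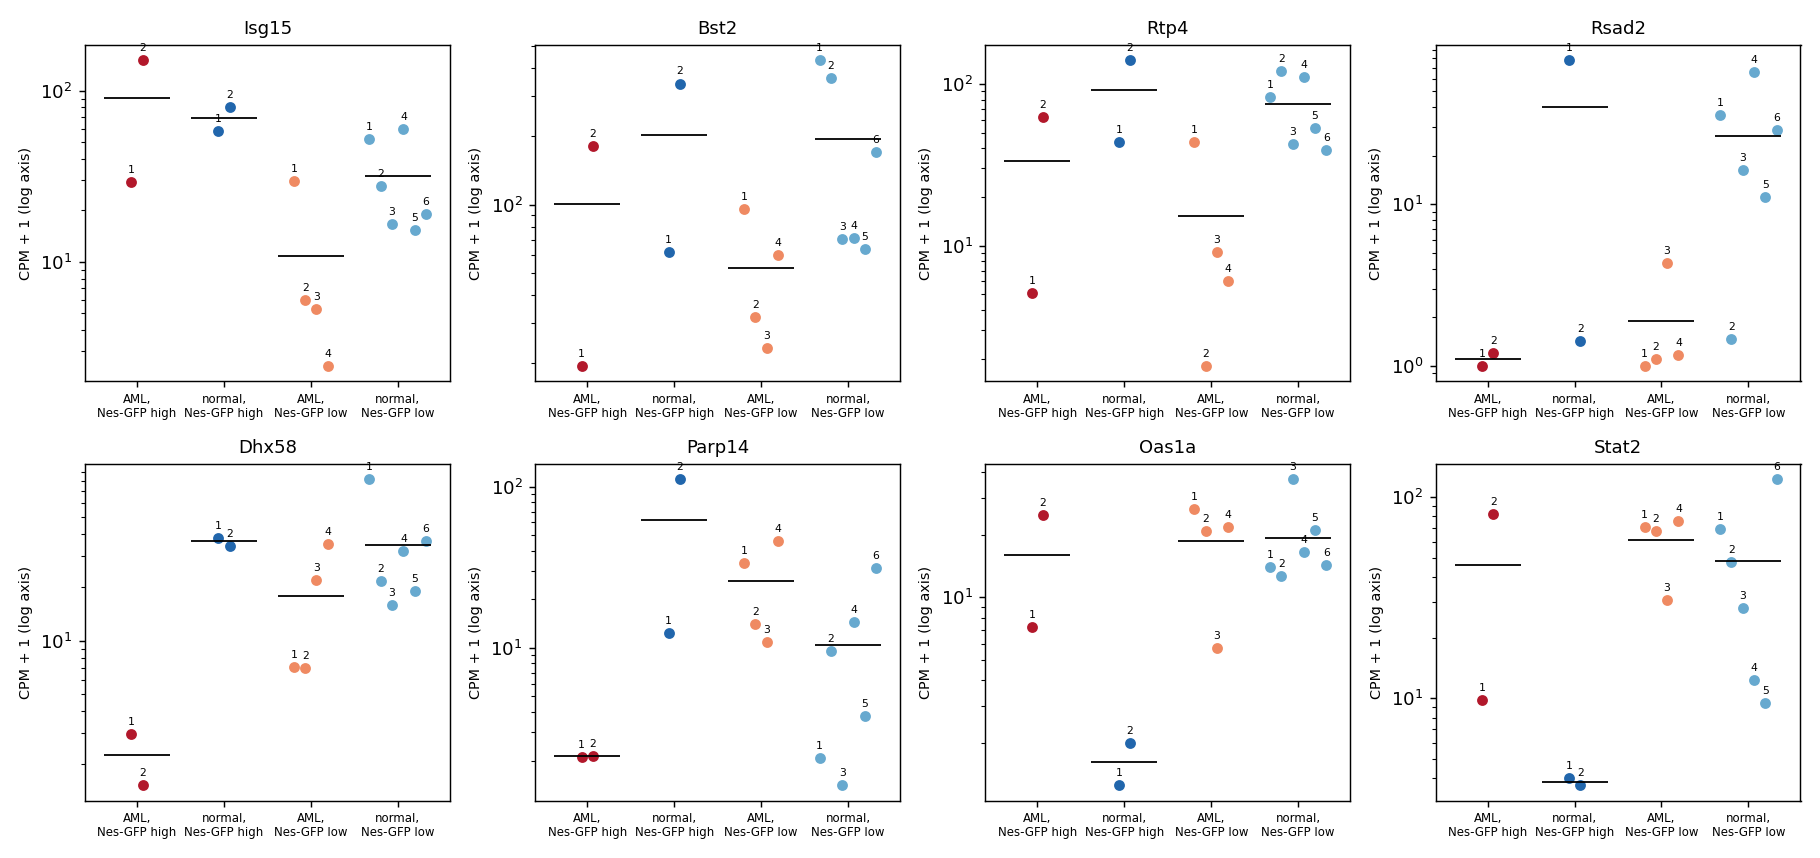
Levels of 8 members (CPM + 1, log axis) by library (points, numbered by replicate) with the group mean as a black line. Isg15, Bst2, Rtp4 and Rsad2 overlap between AML low and normal low libraries, whereas Dhx58 and Parp14 are at 1.98 CPM or less in both AML high libraries, and Oas1a and Stat2 are at 3.02 CPM or less in both normal high libraries.

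Averaged over both populations, 28 of the 38 genes were below 0 and 10 above 0, with a median of -0.69, against 46.7% of all genes below 0. edgeR called 0 members (0% of all genes), and at an unadjusted p under 0.05, 3 members were above 0 and 4 below, against 7.49% and 5.15% of all genes. DESeq2 called 2 members as higher (3.95% of 16075 genes), Oas1a and Stat2, and 3 as lower (3.2%), Rsad2, Dhx58 and Oasl1. The log2 fold change was -2.90 for Dhx58 (standard error 0.74, edgeR adjusted p = 0.211, DESeq2 adjusted p = 0.000239), and -6.56 for Rsad2 (standard error 1.91, edgeR adjusted p = 0.253, DESeq2 adjusted p = 0.000214, and -3.25 without normal high replicate 1). Stat2 was 0.98 without AML high replicate 2, against 2.17 with it, and Oasl1 -7.67 without AML low replicate 4, against -4.16 with it. Without normal high replicate 2, 16 members were below 0 with a median of 0.47, and without AML high replicate 2, 33 with a median of -2.05.

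The difference between the AML effects of the high and the low population was tested as an interaction. It was above 0 for 24 members and below 0 for 14, with a median of 0.60 against 0.14 over all genes. edgeR called 0 members (0% of all genes). At an unadjusted p under 0.05, the difference was higher for 5 members and lower for 3, against 6.41% and 3.55% of all genes. DESeq2 called 3 members as higher (3.28% of 15167 genes), namely Oas1a (difference 4.62, standard error 1.39, edgeR adjusted p = 0.395, DESeq2 adjusted p = 0.00802), Usp18 and Ifi44, and 3 as lower (1.79%), namely Parp14 (difference -7.15, standard error 2.24, edgeR adjusted p = 0.408, DESeq2 adjusted p = 0.00420), Oasl1 and Dhx58. Without AML high replicate 2 the median difference was -1.69, with 28 members below 0, and without normal high replicate 2 it was 2.68, with 9 below 0.

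Nes-GFP high against low BMSCs gave a picture that differed by gene rather than for the group. In normal mice, 21 members were above 0 and 17 below 0, with a median of 0.07 against -0.27 over all genes. edgeR called 0 members (0% of all genes), and at an unadjusted p under 0.05 the count was 1 above 0 and 7 below, against 2.1% and 9.14% of all genes. DESeq2 called 0 members as higher (0.621% of 15770 genes) and 7 as lower (10.4%). These were Usp18, Herc6, Oas1a, Oas1g, Stat2, Ifi44 and Trim30a, a ubiquitin ligase of the TRIM family. Without normal high replicate 2 the median was -1.52, with 26 members below 0.

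Herc6 was at 0.252 and 0.283 CPM in normal high libraries, against a lowest value of 2.46, a median of 5.51 and a highest of 13.3 CPM in normal low libraries (log2 fold change -4.61, standard error 1.26, edgeR adjusted p = 0.250, DESeq2 adjusted p = 0.000839). Usp18 was at 0 and 0.142 CPM in normal high libraries, against 2.22 to 22.5 CPM with a median of 16.9 CPM in normal low libraries (log2 fold change -7.54, standard error 2.06, edgeR adjusted p = 0.250, DESeq2 adjusted p = 0.000970). The same 2 normal high libraries held 56.8 and 79.6 CPM of Isg15, whose conjugation these enzymes serve, against 14.4 to 59.1 CPM in normal low libraries (edgeR adjusted p = 0.658). Oas1a, at 0.252 and 0.991 CPM in normal high against 11.6 to 35.9 CPM in normal low libraries, differed by a log2 fold change of -4.85 (standard error 1.21, edgeR adjusted p = 0.235, DESeq2 adjusted p = 1.60e-05). Stat2 was at 3.02 and 2.69 CPM in normal high and 8.50 to 121 CPM in normal low libraries (log2 fold change -4.04, standard error 1.29, edgeR adjusted p = 0.318, DESeq2 adjusted p = 0.00224). Oas1g was at 3.02 and 0.142 CPM in normal high and 9.69 to 30.9 CPM in normal low libraries, with a log2 fold change of -3.19 (standard error 1.21, DESeq2 adjusted p = 0.00671), which was -6.71 without normal high replicate 1 and -2.21 without normal high replicate 2. Ifi44 was at 0 and 0.283 CPM in normal high and 0.607 to 53.1 CPM in normal low libraries (log2 fold change -6.96, standard error 2.69, DESeq2 adjusted p = 0.00447, and -10.49 without normal high replicate 2). Each of these 6 genes was lower in both normal high libraries than in every normal low library, as were 1426 of all 18152 genes. Oasl1 was the 1 member higher in both normal high libraries than in every normal low library, as were 630 of all genes.

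In AML mice, 22 members were above 0 and 16 below 0 in Nes-GFP high against low BMSCs, with a median of 0.47 against -0.10 over all genes. edgeR called 0 members (0% of all genes), and at an unadjusted p under 0.05 it was 1 above 0 and 4 below, against 2.5% and 6.48% of all genes. DESeq2 called Isg15 as higher (0.601% of 15465 genes) and Oasl1, Dhx58, Parp9, Parp14 and Trim30a as lower (6.45%). Isg15 was at 28.4 and 150.2 CPM in AML high, against 1.46, 4.34, 4.99 and 28.5 CPM in AML low libraries, so that AML low replicate 1 came up to AML high replicate 1. Its log2 fold change was 3.18 (standard error 1.05, edgeR adjusted p = 0.481, DESeq2 adjusted p = 0.0397), and 1.53 without AML high replicate 2. Dhx58 was at 1.98 and 0.522 CPM in AML high, against 5.99, 6.07, 20.9 and 34.3 CPM in AML low libraries (log2 fold change -3.74, standard error 1.18, edgeR adjusted p = 0.479, DESeq2 adjusted p = 0.00318).

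Trim30a was at 0.247 and 0.313 CPM in AML high, against 0.488, 0.699, 28.6 and 29.3 CPM in AML low libraries (log2 fold change -5.65, standard error 2.36, edgeR adjusted p = 0.546, DESeq2 adjusted p = 0.0194). In normal mice it was at 0 and 0.991 CPM in high and 0.748 to 54.9 CPM in low libraries (log2 fold change -5.99, standard error 2.37, DESeq2 adjusted p = 0.00461, and -11.23 without normal high replicate 2). Parp9 was at 0.618 and 0.313 CPM in AML high, against 0.399, 0.813, 18.2 and 22.3 CPM in AML low libraries (log2 fold change -4.45, standard error 2.01, DESeq2 adjusted p = 0.0479). Parp14, at 1.11 and 1.15 CPM in AML high, was below all 4 AML low libraries (9.87 to 45.1 CPM), with a log2 fold change of -4.46 (standard error 1.79, DESeq2 adjusted p = 0.0202). Herc6, Dhx58, Parp14 and Trim30a were lower in both AML high libraries than in every AML low library, as were 1603 of all 18152 genes. No member was higher in this way, against 1255 of all genes. Oasl1 was under 0.4 CPM in both AML high and in 3 of the 4 AML low libraries, and its log2 fold change of -6.25 (standard error 2.96, edgeR adjusted p = 0.565, DESeq2 adjusted p = 0.0307) rested on AML low replicate 4 and was 0.77 without it. Without AML high replicate 2 the median of the members was -3.29, with 32 below 0. The 2 high against low comparisons share their low or high libraries with the comparisons of AML with normal mice above.

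**Figure D5:**
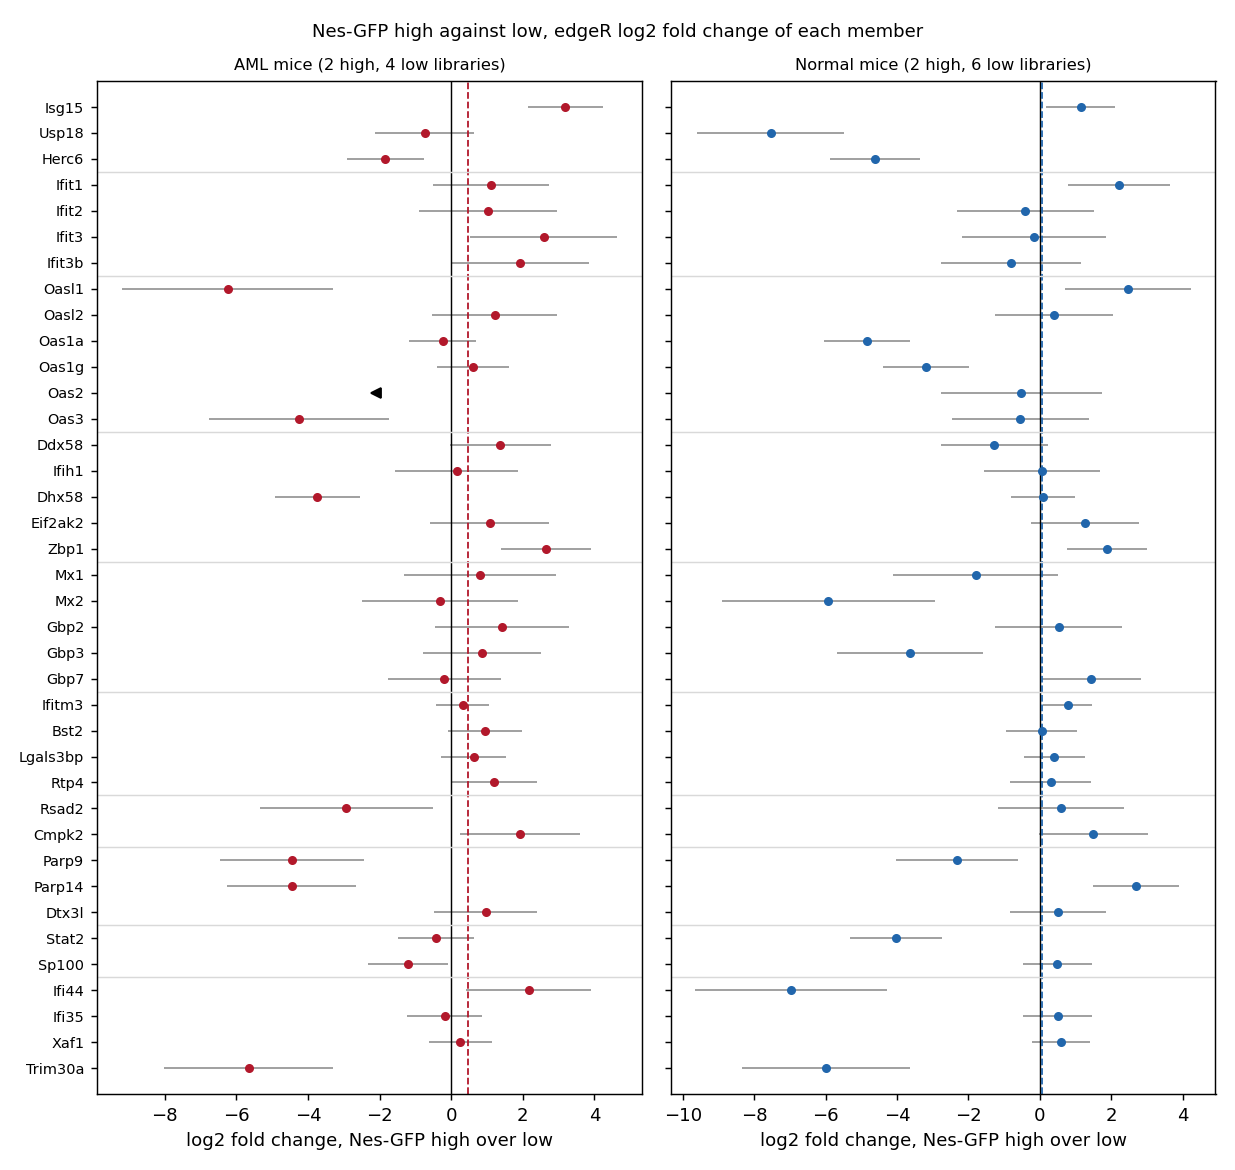
Log2 fold change of Nes-GFP high over Nes-GFP low BMSCs for each of the 38 genes from edgeR, with bars of 1 standard error, in AML mice (left) and normal mice (right). The dashed line is the median of the 38, 0.47 on the left and 0.07 on the right, the black triangle marks a bound of -2.09 for Oas2, without a count in AML high, and Usp18, Herc6, Oas1a, Stat2 and Ifi44 lie at -4.04 or lower on the right.

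The upstream genes of the pathway were looked at as a list of 41 ligands, receptors, kinases, factors, sensors and brakes, of which 32 stood in the table, 31 passed the filter and the other 9, Ifnb1 among them, were not analysed here. edgeR called none of the 31 in any of the 6 comparisons. At an unadjusted p under 0.05 edgeR had 1 upstream gene above 0 and 5 below in AML against normal high BMSCs, 1 and 1 in the low population, 1 and 3 over both, 2 and 3 for the difference of the effects, 1 and 4 in high against low BMSCs of normal mice and 1 and 7 in those of AML mice. DESeq2 called none as higher, and as lower 2, 1, 1, 2, 4 and 7 in the same order. For all genes, the shares at an unadjusted p under 0.05 were, in that order, 7.62%, 2.64%, 7.49%, 6.41%, 2.1% and 2.5% above 0 and 4.54%, 2.9%, 5.15%, 3.55%, 9.14% and 6.48% below, and DESeq2 called 4.27%, 0.473%, 3.2%, 1.79%, 10.4% and 6.45% as lower. The receptor subunit Ifnar2 was at 58.0 and 357 CPM in AML high, 235 and 364 CPM in normal high, 94.6 to 272 CPM in AML low and 49.97 to 492 CPM in normal low libraries. Ifnar1 was at 9.40 and 99.3 CPM in AML high, 37.9 and 191 CPM in normal high, 45.5 to 136 CPM in AML low and 2.62 to 92.5 CPM in normal low libraries. Tlr7, which senses single-stranded RNA, was at 0, 0, 9.78 and 10.5 CPM in AML low libraries and at 0 to 1.01 CPM in normal low libraries, with its reads in AML low replicates 2 and 3, where the macrophage markers were highest (log2 fold change 4.22, standard error 1.91, edgeR adjusted p = 0.894). Irf9, the DNA-binding part of ISGF3, was at 23.7 and 1.46 CPM in AML high and 49.0 and 60.5 CPM in normal high libraries (log2 fold change -2.12, standard error 0.94, edgeR adjusted p = 0.397).

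Irf7, the factor that amplifies the type I interferon response and is itself interferon-stimulated, did not overlap between AML and normal mice in either population, with DESeq2 calling it lower in AML in both. It was at 30.7, 32.7, 39.2 and 52.4 CPM in AML low, against 89.2 to 181 CPM with a median of 127 CPM in normal low libraries (log2 fold change -1.78, standard error 0.45, edgeR adjusted p = 0.478, DESeq2 adjusted p = 0.00644), and at 41.5 and 55.8 CPM in AML high and 109.9 and 399 CPM in normal high libraries (log2 fold change -2.38, standard error 0.68, edgeR adjusted p = 0.269, DESeq2 adjusted p = 0.00443). Of all genes, 11.5% were lower in AML with no overlap in the high population and 0.667% in the low population. Tyk2, a kinase bound to Ifnar1, was at 1.24 and 0.940 CPM in AML high and 59.8 and 0.849 CPM in normal high libraries, so that normal high replicate 1 alone stood high behind its log2 fold change of -4.78 (standard error 1.64, edgeR adjusted p = 0.310). In the high against low comparisons, Irf8, a factor of myeloid and plasmacytoid cells, was at 1.85 and 2.72 CPM in AML high and 61.0 to 350.0 CPM in AML low libraries (log2 fold change -6.11, standard error 1.92, DESeq2 adjusted p = 0.000542). The adaptors Mavs and Tmem173 (STING) were under 1 CPM in both normal high libraries, at 0 and 0.708 CPM each, against 1.11 to 60.3 CPM for Mavs and 3.03 to 90.5 CPM for Tmem173 in normal low libraries (log2 fold changes -6.03 and -6.82, DESeq2 adjusted p = 0.00188 and 0.000398).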

How the data were processed

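RNA of Nes-GFP high and low BMSCs was amplified by Smart-seq2. Per the submitters' processing notes, reads were trimmed with Trim Galore 0.4.1, aligned with TopHat2 2.1.0 to mm10 and counted by featureCounts; DESeq2 1.14.1 is also named, and no strand setting is stated. The authors deposited whole-number counts per gene symbol, without normalization, in 16 library columns, of which 2 matched no sample and were not used; 13 symbols stand on 2 lines, none of them a member. Libraries of a group were no copies of each other (chi-square per degree of freedom 89.7 or more). Reads carry no molecular identifiers, so a floor of 3 counts per library, used for a gene absent from a group, covers counting error only.

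Genes were tested by the quasi-likelihood method of edgeR 4.0.16 (R 4.3.3) on 14 libraries in 4 groups, with TMM and filterByExpr (minimum count 10), two-sided, adjusted over 18152 genes. Levels are CPM over TMM-scaled totals. The alternatives were DESeq2 1.42.0, limma voom with sample weights (limma 3.58.1), DESeq2 size factors, other filters, a replicate block, only the compared groups and each library left out. Added after seeing the data were the count of members below 0, covariates for the stroma sum and Ptprc, and 2 omissions of several libraries. The fit was tested on simulated data with the same spread for all genes, and for AML against normal low BMSCs only. That spread was fixed and not estimated from these libraries, so the simulation does not show which changes edgeR could call here. Positions came from GENCODE M21, promoters from RefSeq. The members, lists and tests were chosen with earlier results of these data known. Values per library are printed for the 6 members with the smallest p in each of 4 comparisons, the 6 with the highest mean level, members that DESeq2 called, Irf7, Irf9, Ifnar1, Ifnar2 and the 2 pathway genes with the smallest p in each of those 4, and the 10 genes outside the list that correlate best with its mean; other genes named (Oas2, Cmpk2, Ifit1, Ifit3, Siglech and those in counts) were chosen after their values were seen. A further pathway gene is not reported here. Correlations used log2(CPM + 1). Tables were made with Python 3.11.15.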

Additional observations from a re-analysis of the deposited data

Results flagged for a closer look

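In the Nes-GFP low groups, 78 checks for a library standing apart from its group (38 members and their sum in each group) marked 13 values. Chance marks about 1 in 20 such groups if the values are normally distributed, which was not tested for these CPM. In AML low BMSCs, replicate 1 stood above the rest for Isg15 (28.5 CPM, the next 4.99), Oasl2 (69.1 CPM, the next 1.79) and Gbp2 (107.6 CPM, the next 20.01). AML low replicate 3 stood above the rest for Oas2 (5.81 CPM, the next 0), Mx2 (4.61 CPM, the next 0.200) and Rsad2 (3.32 CPM, the next 0.163), and AML low replicate 4 for Oasl1 (91.2 CPM, the next 0.206). In normal low BMSCs, replicate 1 stood above the rest for Oas1g (30.9 CPM, the next 13.7), Dhx58 (80.7 CPM, the next 35.6) and Mx2 (35.6 CPM, the next 7.07). Normal low replicate 3 did so for Oas1a (35.9 CPM, the next 19.99) and Oas2 (6.58 CPM, the next 1.19), and normal low replicate 4 for Oas3 (72.3 CPM, the next 24.4). All 13 were the highest value of their group.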

How the results depend on the processing

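edgeR called 0 members in each of the 6 comparisons under every alternative run with it, and so did limma voom, whereas DESeq2 called 7 in AML against normal high BMSCs, 0 in the low population, 5 over both, 6 in the difference of the effects, 7 in high against low BMSCs of normal mice and 6 in those of AML mice. Leaving out 1 library at a time gave the following ranges. For AML against normal high BMSCs the median log2 fold change of the members ran from -3.08 to 1.51 and the number below 0 from 12 to 31. For the low population the median ran from -1.23 to -0.60 and the number from 29 to 33. Over both populations they ran from -2.05 to 0.47 and from 16 to 33, and for the difference of the effects from -1.69 to 2.68 and from 9 to 28. For high against low BMSCs they ran from -1.52 to 0.34 and from 16 to 26 in normal mice, and from -3.29 to 0.92 and from 11 to 32 in AML mice. Of 228 fold changes (38 members in 6 comparisons), 36 had the other sign with limma voom, all with an edgeR unadjusted p of 0.229 or more, and 0 with DESeq2. Among the 38 fold changes of the members chosen for their p or their DESeq2 call, Oasl1 alone changed sign, in high against low BMSCs of AML mice (-6.66 to 0.77 when a library was left out, 0.77 being without AML low replicate 4). The median difference of the effects was 1.86 with limma voom. With a mean of at least 10 CPM, 11 members were below 0 in high against low BMSCs of normal mice, where fewer genes were tested. With the stroma sum as a covariate, 25 were below 0 in high against low BMSCs of AML mice.

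Same-numbered libraries deviated together only in part (correlations of -0.16 to 0.43). Differently numbered libraries were not set beside them, so whether the numbers pair the samples cannot be told. With a replicate block, 0 members were called, and the median was -0.41 in the high and -1.24 in the low population. The high groups, with 2 libraries each, limit every statement on them, and a value of 0 in a library means only that no read was counted at its depth.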
